A study of Mus musculus with 48 samples.

Results

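The genes described here encode matrix metalloproteinases (MMPs) and tissue inhibitors of metalloproteinases (TIMPs) in mice with collagen-induced arthritis (CIA). There were 9 of them among the 34586 genes of the single-cell expression matrix, namely the proteinase genes *Mmp2*, *Mmp3*, *Mmp13*, *Mmp14*, *Mmp19* and *Mmp23* and the inhibitor genes *Timp1*, *Timp2* and *Timp3*. They were chosen by name, and all 9 were present in the matrix. They were read as unique molecular identifiers (UMIs, each counting 1 captured transcript) per mouse, organ and cell type, above all in the fibroblasts of the joint.

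MMPs are zinc-dependent proteinases that cleave the proteins of the extracellular matrix, and most are made as inactive precursors. TIMPs bind to active MMPs and block them, so the amounts of both sides bear on how much matrix is cut. In the arthritic joint, fibroblasts of the synovial membrane are a known source of both, and the collagenase MMP13 is known for cutting type II collagen, the main collagen of cartilage.

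The study profiled joint, lung, muscle, skin and spleen with Seq-Well, a microwell method that captures the 3′ end of transcripts from single cells. The CIA mice were male DBA1/J mice that had been given 100 µg of bovine type II collagen in complete Freund's adjuvant into the skin near the base of the tail, with a booster in incomplete adjuvant on day 20. Healthy controls of the same strain and sex received PBS, and the animals were 8 to 12 weeks old when the experiment began. For the joint there were 3 healthy mice (H3, H4 and H7) and 5 CIA mice (S1, S3, S5, S6 and S8), and each other organ had 4 healthy and 6 CIA mice. The arthritis score at collection was 8 in S1 and S3, 4 to 5 in S5, 3 to 4 in S6 and 2 to 3 in S8. The severe mice S1, S2 and S3 and the control H3 carry the name of one experiment and the other mice that of another, so that severity and experiment cannot be told apart. Tissue had been frozen and then digested, the joint with collagenase and DNase, so the values hold for the cells that this treatment released.

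The matrix held 12096 cells with a cell type from the authors, at a median of 675 UMIs per cell. Joint samples held 71932 to 179606 UMIs in healthy mice and 62796 to 1176647 in CIA mice. Cell barcodes were not fully separate between libraries, since 50 barcodes of annotated cells occurred in more than 1 library, 34 of them in both the muscle and the spleen library of S8. Levels are given as CPM, the UMIs of a gene per 1000000 UMIs of the summed cells of 1 mouse. With 1 UMI per captured 3′ end, CPM compares transcripts without correction for length. *Mmp2* is among the marker genes that the study used to label fibroblasts, so its presence in that cell type is not independent of the label.

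The cells labelled fibroblasts in the joint carried the defining markers of that cell type. The 6 markers *Col1a1*, *Col1a2*, *Col3a1*, *Dcn*, *Lum* and *Pdgfra* together made up 29596 to 41494 CPM in healthy and 24056 to 57426 CPM in CIA mice, and all 6 were detected. Single markers went different ways, with *Dcn* at 15938 to 23627 CPM in healthy mice and 3701 to 8846 CPM in S1, S3 and S5. *Col1a1* stood at 1294 to 4289 CPM and 7460 to 13427 CPM, and *Col3a1* at 1786 to 6534 CPM and 6761 to 16742 CPM. *Col1a2*, *Lum* and *Pdgfra* overlapped between these mice. There were 192 labelled fibroblasts in healthy joints (73 in H3, 81 in H4, 38 in H7) and 398 in the CIA mice S1 (182), S3 (56) and S5 (160). S6 had 9 joint fibroblasts and S8 had 4, which is under the minimum of 10 cells for the comparison, so both are given by their values alone. Transcripts of other cells were also present in these sums. Granulocyte markers (*S100a8*, *S100a9*, *Camp*, *Ngp*, *Ltf* and *Retnlg*) summed to 1440 to 6081 CPM in healthy and 13837 to 30292 CPM in CIA joint fibroblasts, with 6 of 6 detected. Cartilage markers, 7 of 8 of which were detected (*Matn1* was at 0), summed to 396 to 6703 CPM in healthy and 291 to 3686 CPM in CIA mice. Single genes of this list went different ways, with *Cytl1* present in the 3 healthy mice and at 0 in S1, S3 and S5, *Col2a1* at 0 to 259 CPM in the healthy and 219 to 2736 CPM in these CIA mice, and *Col9a1* and *Matn3* at 0 in the healthy and present in these CIA mice. Pericyte and smooth muscle markers (*Rgs5*, *Acta2*, *Myh11* and *Tagln*, 4 of 4 detected) summed to 63.3 to 108 CPM in healthy and 152 to 1091 CPM in CIA mice. These sums did not overlap, whereas each single gene of the list did. Osteoblast markers (5 of 6 detected, with *Dmp1* at 0) summed to 129 to 1440 CPM in healthy and 60.3 to 2340 CPM in CIA mice. Tendon markers (*Tnmd*, *Scx*, *Mkx* and *Fmod*, 4 of 4 detected) summed to 336 to 511 CPM and 43.7 to 1447 CPM. Both pairs of ranges overlapped. The part of pericytes, smooth muscle, osteoblasts and tendon cells in the results was not tested. Without the cells that had a UMI of a cartilage marker, *Mmp3* and *Timp1* kept the calls described below (edgeR, log2 fold changes 3.98 and 3.41). Synovial lining markers (*Prg4*, *Htra4*, *Clic5*, *Hbegf* and *Tspan15*) summed to 4526 to 17183 CPM in healthy and 2340 to 10549 CPM in CIA mice. These ranges overlapped, and most of each sum was *Prg4*. *Htra4* alone did not overlap, at 46.4 to 388 CPM in healthy mice and 14.0 to 31.9 CPM in S1, S3 and S5, from 1 to 15 UMIs per mouse.

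The members lie on 7 chromosomes of the mouse genome (GRCm38, GENCODE annotation), and *Mmp13* and *Mmp3* share chromosome 9. *Mmp13* (chr9:7272514-7283331) and *Mmp3* (chr9:7445822-7455975), both protein-coding genes on the plus strand, are 162 kb apart, with *Mmp12* and *Mmp1b* between them, in a cluster of 10 MMP genes that spans 427 kb. *Timp1* lies on the X chromosome (chrX:20870166-20874735). The 250 bases before the annotated start of these 3 genes are shown because they were the members with the largest differences in CIA joint fibroblasts. They come from RefSeq (GRCm38.p6), where 7 of the 9 members had an entry. The intervals are chr9:7445572-7445821 for *Mmp3*, chr9:7272264-7272513 for *Mmp13* and chrX:20869916-20870165 for *Timp1*, all on the plus strand and written 5′ to 3′ with matches to the motifs named after them in capitals.
Mmp3: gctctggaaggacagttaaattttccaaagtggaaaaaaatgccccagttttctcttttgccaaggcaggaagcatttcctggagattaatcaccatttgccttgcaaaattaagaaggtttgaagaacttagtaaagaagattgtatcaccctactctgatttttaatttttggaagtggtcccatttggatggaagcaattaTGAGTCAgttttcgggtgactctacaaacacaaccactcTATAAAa
Mmp13: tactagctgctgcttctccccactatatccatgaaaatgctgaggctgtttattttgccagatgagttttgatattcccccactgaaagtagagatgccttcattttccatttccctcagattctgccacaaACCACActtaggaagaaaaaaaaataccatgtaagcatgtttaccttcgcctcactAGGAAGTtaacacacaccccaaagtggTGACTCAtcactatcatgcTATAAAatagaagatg
Timp1: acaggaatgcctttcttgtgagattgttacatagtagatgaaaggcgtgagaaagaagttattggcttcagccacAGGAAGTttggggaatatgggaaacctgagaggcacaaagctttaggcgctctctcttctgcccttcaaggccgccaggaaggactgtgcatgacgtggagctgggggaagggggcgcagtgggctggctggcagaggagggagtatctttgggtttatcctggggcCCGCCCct

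The motifs searched, on both strands, were TGANTCA (the binding sequence of AP-1, the dimer of Fos and Jun proteins), TATAAA (the TATA box), GGGCGG (the GC box), AGGAAGT (an ETS motif) and ACCACA (a RUNX motif). Counting the base before the start as -1, *Mmp3* held TGAGTCA at -46 to -40 and TATAAA at -7 to -2. *Mmp13* held TGACTCA at -35 to -29 and TATAAA at -16 to -11, with AGGAAGT at -62 to -56 and ACCACA at -118 to -113. *Timp1* held CCGCCC, the reverse complement of GGGCGG, at -8 to -3 and AGGAAGT at -175 to -169, with no match to TGANTCA in this window. Among 32817 promoters of the same length, 6.75% held TGANTCA, 12.4% TATAAA, 32.7% GGGCGG, 7.69% AGGAAGT and 14.0% ACCACA. These matches describe the letters of the window and are not evidence of binding.

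In the joint, 7 of the 9 members were for the most part transcripts of fibroblasts, and *Mmp19* and *Timp3* were shared more widely. There, cells labelled fibroblasts held 95.6% of all *Mmp3* UMIs, 92.5% of *Mmp13*, 89.3% of *Mmp2*, 88.3% of *Mmp14*, 88.0% of *Mmp23*, 87.6% of *Timp1* and 80.2% of *Timp2*. *Timp3*, whose protein stays bound to the matrix, was shared between fibroblasts (69.4%) and endothelial cells (23.9%). *Mmp19*, a proteinase first known from inflamed synovium and expressed by myeloid cells, was split between fibroblasts (45.2%) and macrophages (43.5%). In other organs *Mmp13* came mainly from other cells, with 109 of its 141 UMIs in skin from cells labelled Basal III and 21 of its 22 UMIs in lung from macrophages, whereas in muscle 89 of 126 were from fibroblasts.

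*Mmp3* had the highest mean of the members in each of the 3 fibroblast populations when healthy and CIA mice were pooled, as in all the organ means given here. In joint and muscle this rank did not hold in healthy mice alone. There, in the joint, *Timp2* (586 to 991 CPM) and *Timp3* (666 to 1242 CPM) lay above *Mmp3* (95.0 to 449 CPM). In healthy muscle fibroblasts *Timp2* ran from 590 to 1301 CPM and *Mmp3* from 143 to 688 CPM. *Mmp3*, encoding the stromelysin that cuts proteoglycans and activates other MMP precursors, had a mean of 4285 ± 3622 CPM (SD, n = 9 mice) in skin fibroblasts, 2175 ± 2538 CPM (n = 6) in joint fibroblasts and 920 ± 1106 CPM (n = 8) in muscle fibroblasts, and 447 ± 451 CPM (n = 10) in skin cells labelled Basal III. These neighbours in the order lay within each other's spread, and in healthy mice alone the joint (224 ± 195 CPM, n = 3) stood below muscle (359 ± 241 CPM, n = 4). *Mmp2*, the gelatinase of resting mesenchymal cells, ran in another order, with 621 ± 408 CPM in the joint, 321 ± 121 CPM in muscle and 180 ± 128 CPM in skin. *Timp1*, the inducible inhibitor, was highest in joint fibroblasts (1033 ± 1259 CPM) and had 275 ± 618 CPM in skin and 97.4 CPM in muscle fibroblasts.

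The inhibitors *Timp2* and *Timp3* did not have their highest pooled means in the joint. *Timp2*, which also takes part in the activation of the MMP2 precursor on the cell surface, had 890 ± 237 CPM in muscle fibroblasts, 729 ± 323 CPM in joint fibroblasts and 332 ± 215 CPM in skin fibroblasts. *Timp3* had 876 ± 248 CPM (n = 4) in muscle endothelial cells, 772 ± 631 CPM in muscle fibroblasts, 634 ± 351 CPM in joint fibroblasts and 571 ± 273 CPM in joint endothelial cells. In healthy mice alone *Timp3* ran from 666 to 1242 CPM in joint fibroblasts and from 230 to 2079 CPM in muscle fibroblasts. *Mmp14*, the membrane-bound proteinase that activates the MMP2 precursor, was at similar means in the 3 fibroblast populations, with 306 ± 141 CPM in the joint, 253 ± 98.0 CPM in skin and 227 ± 248 CPM in muscle. *Mmp23*, encoding a small membrane-anchored family member, was low in all 3, with 37.9 CPM in muscle, 18.4 CPM in the joint and 17.1 CPM in skin. In the spleen each member had at most 14 UMIs in all.

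**Figure D1:**
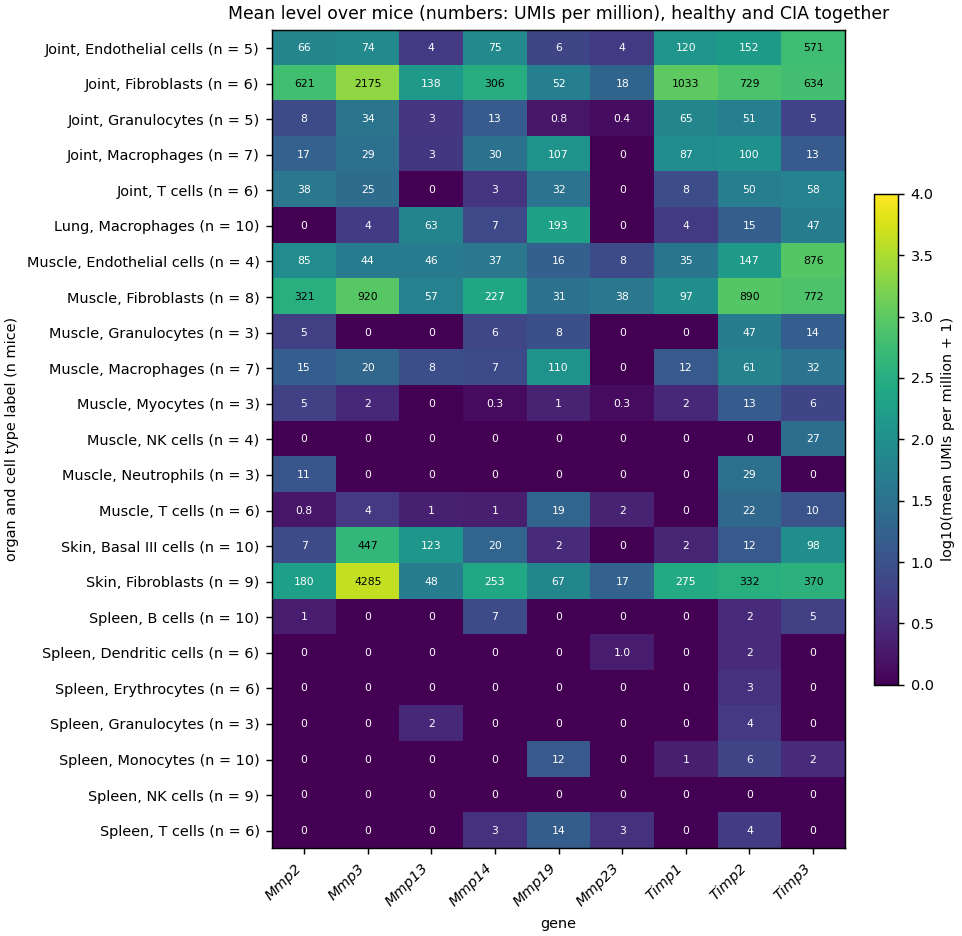
Heat map of the mean level (CPM, colour and printed value) of the 9 genes in the 23 pairs of organ and cell type that had at least 3 mice with 10 or more cells, healthy and CIA mice together. The fibroblast rows of joint, skin and muscle hold the highest values of Mmp3 and Timp2, the joint fibroblast row that of Timp1, and the macrophage rows those of Mmp19.

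Joint fibroblasts of CIA mice held far more transcripts of *Mmp3* and *Timp1* than those of healthy mice, and *Mmp13* appeared in CIA mice where no UMI was counted in healthy ones. *Mmp3* rose 16.3-fold and *Timp1* 7.52-fold in the edgeR fit, and both passed the test. They were 2 of 17 genes called among the 1014 tested (1.68%), 12 of which were higher in CIA mice (1.18%). Of the 9 members, 6 passed the filter on low counts, and *Mmp13*, *Mmp19* and *Mmp23* did not.

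*Mmp3* stood at 95.0, 449 and 129 CPM in the healthy mice H3, H4 and H7, from 6, 29 and 5 UMIs. In the CIA mice S1, S3 and S5 it stood at 2973, 6615 and 2790 CPM, from 638, 454 and 787 UMIs. Every CIA mouse of the comparison lay above every healthy mouse, and the smallest CIA value was several times the largest healthy value. The group means were 224 ± 195 CPM and 4126 ± 2157 CPM (SD, n = 3 each), for a log2 fold change of 4.03 with a standard error (SE) of 0.72 (edgeR quasi-likelihood test, adjusted p = 0.0282). Among the mice with few fibroblasts, S6 had 37 *Mmp3* UMIs in 9 cells (1932 CPM), between the highest healthy value and the lowest of S1, S3 and S5, and S8 had 0 UMIs in 4 cells.

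*Timp1*, the inhibitor that binds MMP3 and MMP13 among others, moved in the same direction. It stood at 158, 232 and 311 CPM in H3, H4 and H7 and at 988, 3482 and 1025 CPM in S1, S3 and S5. Here too the groups did not overlap, and the mean went from 234 ± 76.1 to 1832 ± 1430 CPM (n = 3 each). The log2 fold change was 2.91 with an SE of 0.61 (edgeR, adjusted p = 0.0495), just inside the threshold of 0.05. S6 had 44 *Timp1* UMIs in its 9 cells (2297 CPM) and S8 had 0.

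*Mmp13*, the collagenase, had 0 UMIs in the 192 healthy joint fibroblasts and 76, 10 and 93 UMIs in S1, S3 and S5. This gave 354, 146 and 330 CPM, with a mean of 277 ± 114 CPM (n = 3). A count of 0 over the 3 healthy mice allows up to 18.0 CPM (3 counts over all healthy cells), so the summed CIA level was at least 17.6-fold higher. Counting intervals and floors cover counting error only. *Mmp13* was too sparse for the filtered test. In the same fit with every gene that had a UMI, 100 of 19235 genes were called (0.52%), and *Mmp13* was one of them (edgeR, adjusted p = 8.34e-08). Adjusted p-values in that fit were smaller for the filtered genes too, at 2.97e-10 for *Mmp3* and 7.18e-06 for *Timp1*, so they are not to be set beside those of the filtered fit. Of 17860 genes with a UMI in the CIA mice of the comparison, 571 were at 0 in the healthy and present in every CIA mouse. *Mmp13* was one of them and ranked 4 in UMIs. The healthy sums held 166413 UMIs and the CIA sums 565258. That list is drawn from the same values, so the rank adds no support. S6 had 67 *Mmp13* UMIs in its 9 fibroblasts (3498 CPM), of which 46 lay in 1 cell, and S8 had 0. A cartilage marker was seen in 8 of the 19 fibroblasts with *Mmp13* in S1 (27 of 76 UMIs), in 1 of 3 in S3 (2 of 10 UMIs) and in 3 of 10 in S5 (6 of 93 UMIs).

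**Figure D2:**
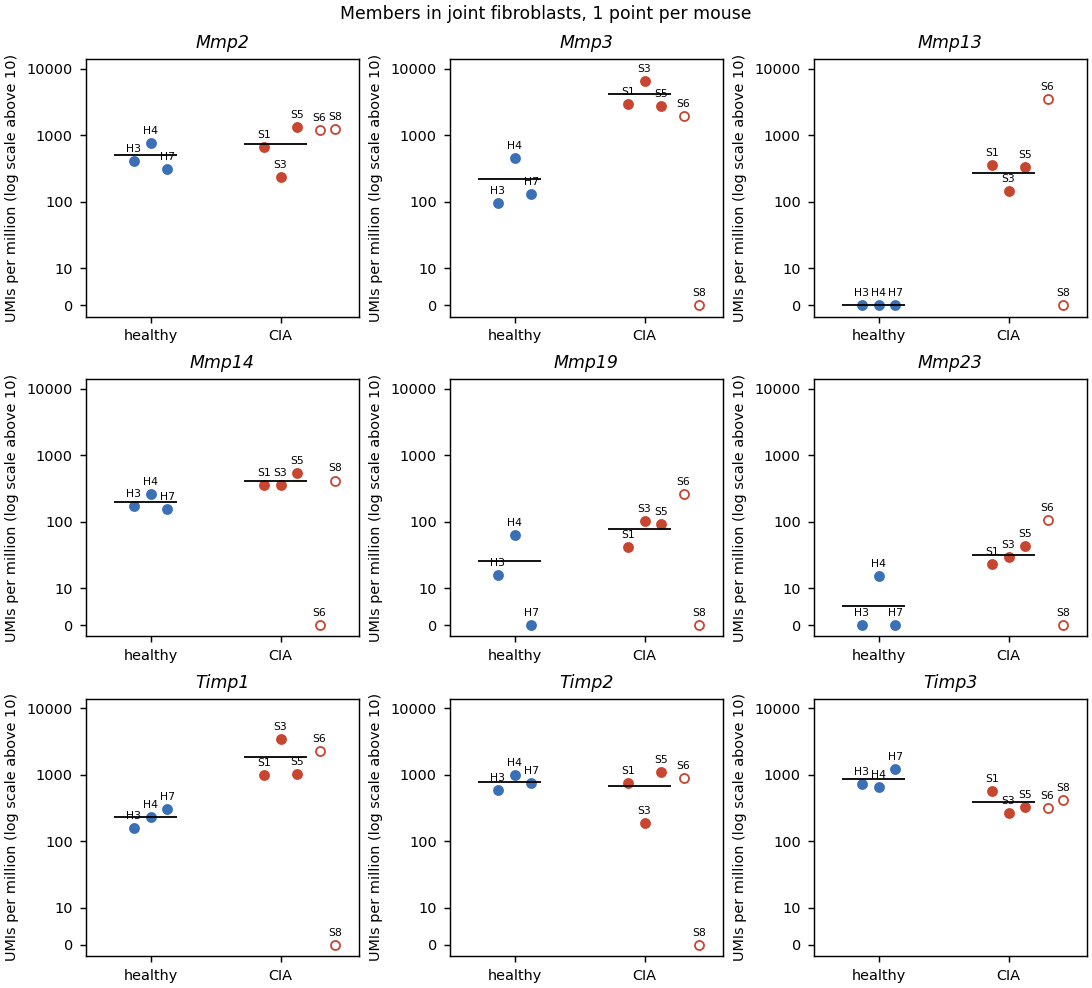
Level in joint fibroblasts (CPM, 1 panel per gene, axis linear up to 10 and logarithmic above) per mouse, healthy and CIA. Filled points are mice with at least 10 fibroblasts, hollow points are S6 and S8 with 9 and 4 cells, and lines mark the means of the filled points. The filled CIA points of Mmp3, Mmp13, Mmp14, Mmp23 and Timp1 lie above all healthy points, those of Timp3 below, and those of Mmp2, Mmp19 and Timp2 overlap with them.

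The calls for *Mmp3* and *Timp1* depended on each of the healthy mice, while their direction did not. Without H3, H4 or H7 the adjusted p for *Mmp3* was 0.146, 0.0745 and 0.194 and that for *Timp1* 0.250, 0.103 and 0.248, whereas over all 6 omissions the log2 fold change stayed between 3.54 and 5.28 for *Mmp3* and between 2.10 and 3.33 for *Timp1*. Each experiment had too few mice for a test of its own. In one experiment *Mmp3* stood at 95.0 CPM in H3 against 2973 and 6615 CPM in S1 and S3, and in the other at 449 and 129 CPM in H4 and H7 against 2790 CPM in S5. *Timp1* stood at 158 CPM against 988 and 3482 CPM in the first and at 232 and 311 CPM against 1025 CPM in the second. With the experiment as a term in edgeR, *Mmp3* kept an adjusted p of 0.0485 and *Timp1* had 0.105. Without the cells whose barcode occurred in more than 1 library, *Mmp3* remained called and *Timp1* had an adjusted p of 0.0607 (edgeR).

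The other members of the joint did not pass the test. *Mmp14* stood at 174, 263 and 155 CPM in H3, H4 and H7 and at 359, 350 and 535 CPM in S1, S3 and S5. The groups did not overlap, and the log2 difference was 0.96 with an SE of 0.42 (edgeR, adjusted p = 0.272). *Mmp23* was detected with 0, 1 and 0 UMIs in the healthy mice, where 15.5 CPM in H4 was that 1 UMI, and at 23.3, 29.1 and 42.5 CPM in the CIA mice. *Mmp19* stood at 15.8, 61.9 and 0 CPM in healthy and at 41.9, 102 and 92.2 CPM in CIA mice, and the groups overlapped. *Mmp2* overlapped as well, with 411, 774 and 311 CPM against 657, 233 and 1340 CPM (log2 difference 0.46, SE 0.61, edgeR adjusted p = 0.731).

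The inhibitors *Timp2* and *Timp3* did not follow *Timp1*. *Timp3* stood at 728, 666 and 1242 CPM in healthy mice and at 573, 262 and 330 CPM in CIA mice, so that every CIA mouse lay below every healthy mouse. Its log2 difference was -1.20 with an SE of 0.41 (edgeR, adjusted p = 0.183). *Timp2* stood at 586, 991 and 750 CPM in healthy and at 755, 189 and 1103 CPM in CIA mice, which overlapped (log2 difference -0.26, SE 0.56, adjusted p = 0.849). Of the 9 members, 5 had all CIA mice above all healthy mice and 1 had them below. Among the 19235 genes with a UMI in these samples the shares were 6.33% above and 3.24% below, and among the 1014 tested genes they were 18.1% and 6.8%.

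**Figure D3:**
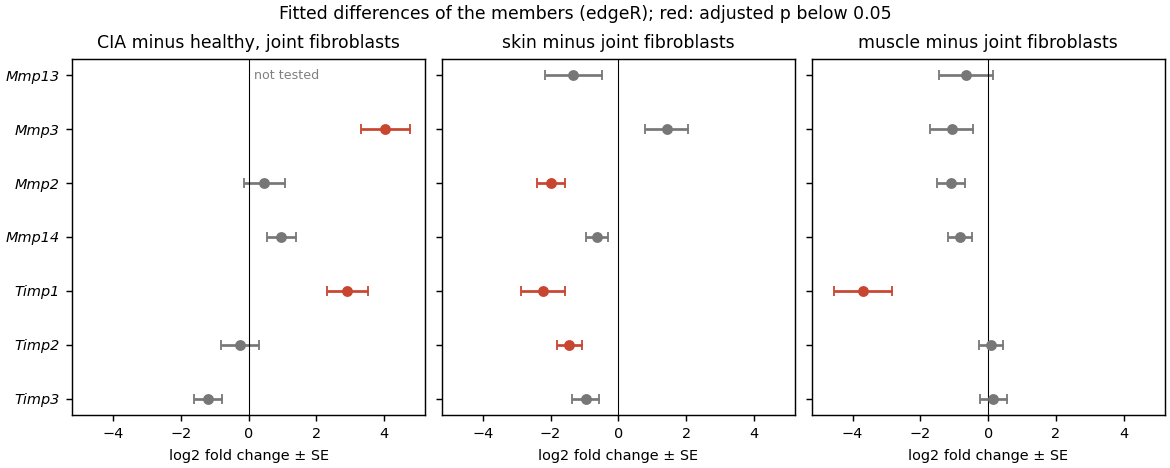
Log2 fold changes with SE from edgeR for 7 genes (Mmp13 was not tested in the first panel), CIA against healthy joint fibroblasts, skin against joint fibroblasts and muscle against joint fibroblasts. Red points have an adjusted p under 0.05, and these are Mmp3 and Timp1 in the first comparison, Mmp2, Timp1 and Timp2 (all lower in skin) in the second and Timp1 (lower in muscle) in the third.

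The make-up of the group shifted with these changes. Summed over the 6 proteinase genes and the 3 inhibitor genes, joint fibroblasts held 0.473, 0.828 and 0.258 MMP UMIs per TIMP UMI in H3, H4 and H7. In S1, S3 and S5 the ratio was 1.90, 1.90 and 2.09, so that MMP transcripts outnumbered TIMP transcripts in these CIA mice and not in the healthy mice. In S3 this rested on a single cell, which held 338 of the 513 MMP UMIs, against 270 TIMP UMIs in all. The S3 share of *Mmp3* given below rests on the same cell. S6, with 9 cells, had a ratio of 2.00. This ratio counts transcripts and takes no account of protein or of activation. Among the proteinase UMIs, *Mmp3* made up 13.6%, 28.7% and 21.7% in healthy mice and 67.4%, 88.5% and 54.4% in CIA mice. Among the inhibitor UMIs, *Timp1* made up 10.8%, 12.3% and 13.5% in healthy mice, where *Timp2* and *Timp3* held the rest, and 42.7%, 88.5% and 41.7% in CIA mice. The shift of the MMP to TIMP ratio was not limited to the joint. In muscle fibroblasts it was at most 0.72 in healthy mice, from 9 to 18 MMP UMIs each. There it stood at 1.64, 1.87, 1.33 and 0.813 in S1, S2, S5 and S6, without overlap. In skin fibroblasts MMP transcripts outnumbered TIMP transcripts in healthy mice too (1.5 to 10.25), and CIA mice overlapped with them (2.125 to 5.56).

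**Figure D4:**
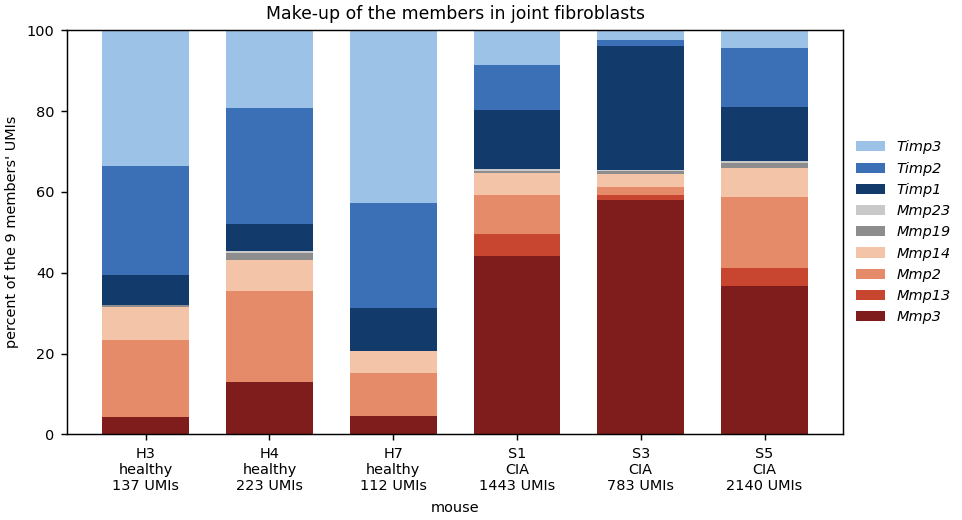
Share of each gene (percent of the UMIs of all 9 genes, stacked bars that add to 100) in the joint fibroblasts of H3, H4, H7, S1, S3 and S5. The bars rest on 137, 223 and 112 UMIs in healthy and 1443, 783 and 2140 UMIs in CIA mice, and the share of the proteinases goes from 20.5 to 45.3% in healthy to 65.5 to 67.6% in CIA mice. Of the 783 UMIs of S3, 338 are Mmp3 UMIs of 1 cell.

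The rise of *Mmp3* was carried both by more cells with a UMI and by a few cells with very many. Joint fibroblasts of CIA mice had more UMIs per cell (medians of 1020.5 to 1471.5 in S1, S3 and S5 against 679 to 838 in healthy mice), so shares of cells with a UMI were compared after thinning each cell to 500 UMIs, which left out 21 of 192 healthy and 31 of 398 CIA cells with fewer. At that depth *Mmp3* was seen in 2.87 to 8.77% of the fibroblasts of healthy mice and in 25.0 to 26.2% of those of CIA mice, against 5.26 to 9.88% and 30.4 to 35.0% before thinning. *Timp1* was seen in 6.19 to 13.1% and 22.5 to 64.9% of thinned cells (9.59 to 21.1% and 42.9 to 80.4% before). *Mmp13* was seen in 0% and 3.80 to 8.32% of thinned cells (0% and 5.36 to 10.4% before), so in CIA joints too most fibroblasts had no *Mmp13* UMI. In 1 CIA mouse the level itself rested on a single cell, since 338 of the 454 *Mmp3* UMIs of S3 (74.4%) lay in 1 of its 56 fibroblasts. With the top cell of each mouse left out, *Mmp3* ran from 54.3 to 330 CPM in healthy and from 1771 to 2672 CPM in CIA mice, *Timp1* from 112 to 238 and from 815 to 3072 CPM, and the *Mmp13* level of CIA mice from 76.3 to 313 CPM.

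In the same cells *Mmp13* and *Mmp3* tended to be seen together. *Mmp13* was detected in 21.7% of the 60 S1 fibroblasts with an *Mmp3* UMI and in 4.92% of the 122 without one. In S3 these shares were 17.6% of 17 and 0% of 39, and in S5 12.5% of 56 and 2.88% of 104. The median UMIs of the cells with and without *Mmp3* were 1145 and 973.5 in S1, 1065 and 1005 in S3, and 1468.5 and 1475.5 in S5. Cells of 1 mouse share a library, so these shares describe the 3 mice and carry no test.

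Other cells of the arthritic joint showed a low share of cells with these transcripts. In the 723 joint granulocytes of CIA mice (median 830 UMIs) a UMI of *Mmp3* was seen in 2.21%, of *Timp1* in 4.29% and of *Mmp13* in 0.83% of cells, against 33.3%, 48.4% and 8.52% of all 411 fibroblasts of the 5 CIA mice (median 1145 UMIs). Granulocyte markers were higher in the fibroblast sums of CIA mice (above), and the summed granulocytes themselves held *Mmp3* at 21.9 CPM and *Timp1* at 42.4 CPM. Macrophages of CIA joints had *Mmp3* in 2.88% and *Timp1* in 7.41% of 243 cells, and T cells in 3.79% and 2.27% of 132 cells. Endothelial cells of CIA joints were above these, with *Mmp3* in 8.41% and *Timp1* in 16.8% of 214 cells, 108 of them from S1. The 44 endothelial cells of healthy joints, 30 of them from H3, had 0% and 2.27%. These shares pool mice and were not thinned to equal depth, so they do not settle a difference between healthy and CIA mice. Among mice with at least 10 of these cells, *Mmp3* was seen in 3.70% (S1), 14.5% (S5), 5% (S6) and 0% (H3 and H4). *Timp1* was seen in 14.8% (S1), 21.1% (S5), 5% (S6), 3.33% (H3) and 0% (H4), with 1 positive cell each in S6 and H3. A count of 0 in 44 cells allows a share of up to 6.82%, and the part of free RNA in the shares of CIA joints was not tested.

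The sums over all annotated joint cells bring S6 and S8 into the comparison. In such sums fewer cells of a type and less RNA per cell cannot be told apart. *Mmp3* stood at 39.0, 264 and 69.5 CPM in H3, H4 and H7 and at 1024, 3812, 705, 621 and 39.1 CPM in S1, S3, S5, S6 and S8. S8, the CIA mouse with the lowest arthritis score and 4 fibroblasts in the joint, lay within the healthy range, and the other 4 lay above it. *Mmp13* stood at 5.57, 0 and 0 CPM in healthy mice and at 122, 146, 86.7, 1067 and 0 CPM in CIA mice. *Timp1* stood at 66.8, 107 and 195 CPM in healthy and at 382, 2040, 298, 764 and 26.0 CPM in CIA mice. Here S8 lay below the healthy range and the other CIA mice above it.

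With all cells together 0 of 7 tested members passed the edgeR test in the joint, where 3 of 2364 genes were called (0.127%), and 3 members had an unadjusted p under 0.05. *Mmp13* had a log2 difference of 6.43 with an SE of 1.57 (adjusted p = 0.118), *Mmp3* 3.34 with an SE of 1.04 (adjusted p = 0.239) and *Timp1* 2.61 with an SE of 0.90 (adjusted p = 0.271). DESeq2 on the same sums called *Mmp3* (adjusted p = 0.0454) and *Mmp13* (adjusted p = 0.0491). In the sums over all cells of muscle and skin, 3 and 5 members were tested and 0 called, where 0.055% and 0% of genes were. In lung and spleen, where 4.96% and 0.137% of genes were called, the filter left no member to test.

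Skin fibroblasts held *Mmp3* in healthy mice as well, and with wide spread. It stood at 3491, 1020, 4720 and 3938 CPM in H3, H4, H6 and H7 and at 4365, 12968, 315, 4839 and 2911 CPM in S1, S2, S3, S5 and S8. The groups overlapped widely, and the log2 difference of 0.65 did not pass (edgeR, adjusted p = 0.793, with 0 of 349 genes called). *Timp1* in skin fibroblasts had 1 UMI in the 4 healthy mice together and 159 in CIA mice. It stood at 0, 0, 0 and 26.4 CPM in healthy and at 296, 1893, 263, 0 and 0 CPM in CIA mice, so that S5 and S8 overlapped with the healthy mice. S6, with 8 skin fibroblasts and so not in the comparison, had 10 *Timp1* UMIs (1792 CPM), near the value of S2. It was too sparse for the filtered test and was called when every gene with a UMI was kept, as 1 of 12 genes of 15661 (0.0766%, edgeR, log2 fold change 5.90, adjusted p = 3.65e-10), with 142 of the 159 UMIs from S2.

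In muscle fibroblasts *Mmp3* stood at 221, 383, 688 and 143 CPM in H3, H4, H6 and H7 and at 662, 3571, 927 and 763 CPM in S1, S2, S5 and S6. The CIA value of 662 CPM lay below the highest healthy value, so the groups overlapped. *Timp1* was at 44.1, 0, 98.3 and 143 CPM in healthy and 0, 275, 168 and 50.9 CPM in CIA mice, without separation. *Mmp14* stood at 88.2, 153, 98.3 and 71.7 CPM in healthy mice and at 827, 206, 199 and 173 CPM in CIA mice, with every CIA mouse above every healthy mouse. These rest on 1 or 2 UMIs in each healthy mouse, and 0.748% of the genes with a UMI in these samples had such an order. *Timp2* was the member that passed the filter in muscle fibroblasts, where 0 of 173 genes were called.

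*Mmp13* was at 0 in 7 of the 8 muscle fibroblast samples, and the S5 sample had 89 UMIs in 25 cells (453 CPM). In that sample 13 of 174 fibroblasts, and 5 of the 25 with *Mmp13*, had a UMI of a cartilage marker.

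**Figure D5:**
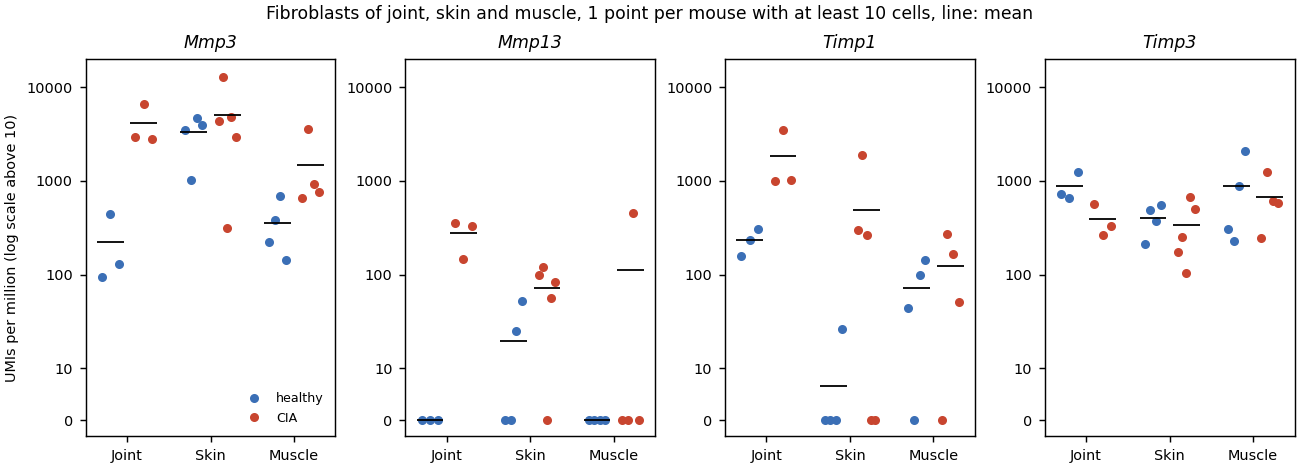
Levels (CPM, axis linear up to 10 and logarithmic above) of Mmp3, Mmp13, Timp1 and Timp3 per mouse in fibroblasts of joint, skin and muscle, healthy and CIA, for mice with at least 10 fibroblasts. In the joint the healthy and CIA points of Mmp3 and Timp1 are apart, and in skin and muscle they overlap.

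Across the 3 organs, in 1 edgeR fit of 23 fibroblast samples with disease as a term, *Timp1* was lower in both skin and muscle than in the joint. The log2 difference was -2.22 with an SE of 0.64 for skin (adjusted p = 0.0118) and -3.70 with an SE of 0.85 for muscle (adjusted p = 0.00837). Skin fibroblasts also had less *Mmp2* (-1.99, SE 0.41, adjusted p = 0.000661) and less *Timp2* (-1.45, SE 0.36, adjusted p = 0.00415) than joint fibroblasts. These 3 members stood among 274 of 1134 genes called between skin and joint (24.2%), 188 of them lower in skin (16.6%), and *Timp1* among 53 called between muscle and joint (4.67%), 39 of them lower in muscle (3.44%). *Mmp3* was 1.43 higher in skin on the log2 scale (SE 0.63) and did not pass (adjusted p = 0.0977), although DESeq2 called it (adjusted p = 0.0393). *Timp3* was at -0.97 in skin with an adjusted p of 0.0693, and it was called (-1.32, adjusted p = 0.0213) with the mouse as a replicate block, which pairs the organs of 1 animal.

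Whether CIA changed a member differently in the organs was tested by the interaction term. For *Mmp3* the CIA effect in skin was lower than that in the joint by a log2 difference of -3.39 with an SE of 1.05 (edgeR, adjusted p = 0.422), and in muscle by -1.84 (adjusted p = 0.690). Neither passed. For skin against joint 0 of 1134 genes passed, with 79 at an unadjusted p under 0.05, and for muscle against joint 2 did (0.176%). With every gene that had a UMI, the *Mmp3* term for skin against joint was called (-3.54, edgeR adjusted p = 0.00358). Whether the response of *Mmp3* differed between joint and skin thus depended on the filter. In muscle fibroblasts alone *Mmp3* had not passed the filter. The fit without a filter did not call it for CIA against healthy (edgeR, log2 difference 2.41, adjusted p = 0.355).

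*Mmp19* in joint macrophages was at 0 UMIs in the 61 cells of the healthy mice H3, H4 and H7 and was present in each of the 4 CIA mice with enough macrophages. It stood at 224, 165, 175 and 188 CPM in S1, S3, S5 and S8, from 21, 3, 23 and 3 UMIs, with a mean of 188 ± 25.6 CPM. A count of 0 in the healthy cells allows up to 42.2 CPM, so the summed CIA level was at least 4.56-fold higher. With every gene that had a UMI, 11 of 15400 genes were called (0.0714%) and *Mmp19* did not pass (edgeR, log2 difference 6.22, SE 1.57, adjusted p = 0.0811), and it was not among the 273 genes of the filtered fit, of which 28 were called (10.3%). Of all genes with a UMI in joint macrophages, 1.74% had every CIA mouse above every healthy mouse. Of 14072 genes with a UMI in these CIA mice, 110 were at 0 in the healthy and present in every CIA mouse. *Mmp19* was one of them and ranked 2 in UMIs. The healthy sums held 71012 UMIs and the CIA sums 259634, and this rank too adds no support.

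Macrophages of other organs held *Mmp19* without that pattern. In lung macrophages, which had the highest mean (193 ± 109 CPM, n = 10), it stood at 89.5 to 318 CPM in 4 healthy mice (median 290 CPM) and at 0 to 281 CPM in 6 CIA mice (median 170 CPM). The groups overlapped, and the difference did not pass in the fit of all genes with a UMI (edgeR, log2 difference -0.99, adjusted p = 0.586). *Mmp13* was also read in lung macrophages, with 1 UMI in the healthy mice and 20 UMIs spread over 6 of 6 CIA mice. Its levels there were 0 to 9.63 CPM in healthy and 16.1 to 210 CPM in CIA mice, where the highest healthy and the lowest CIA value were 1 UMI each. Of the genes with a UMI in lung macrophages, 0.399% had every CIA mouse above every healthy mouse. *Mmp13* did not pass among all genes with a UMI (edgeR, adjusted p = 0.259), where 0.193% were called. The filtered fit, with 35 of 538 genes called (6.51%), held no member.

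Skin cells labelled Basal III were the main non-fibroblast source of *Mmp3* and held *Mmp13* as well. *Mmp3* stood at 239, 0, 1155 and 421 CPM in healthy mice and at 0 to 1291 CPM in 6 CIA mice, a log2 difference of -0.09 that did not pass (0 of 1280 genes called). *Mmp13* stood at 87.0, 0, 142 and 40.8 CPM in healthy mice and at 111, 342, 68.2, 49.3, 54.1 and 338 CPM in S1, S2, S3, S5, S6 and S8. The groups overlapped. Over the 10 pairs of organ and cell type tested beside joint fibroblasts, 94 of 7244 tested genes were called (1.3%). The filter left 4 tests of members, in 3 of these pairs, and 0 were called by edgeR or DESeq2 or had an unadjusted p under 0.05 in edgeR.

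Other genes of the chromosome 9 cluster had other main sources. *Mmp8*, the neutrophil collagenase, had 59.8% of its 987 UMIs in joint granulocytes. *Mmp10*, the second stromelysin, had 80.6% of its 253 UMIs in skin Basal III cells, and *Mmp12*, the macrophage elastase, 38.5% of its 384 UMIs in lung macrophages. Outside the cluster, *Mmp9*, the gelatinase of neutrophils and one of the study's markers for them, had 46.3% of its 337 UMIs in joint granulocytes, and *Timp4* had 45.6% of its 57 UMIs in muscle endothelial cells.

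The genes that act on the same pathway did not pass the test in joint fibroblasts, and most were too sparse for it. Of the other MMP and TIMP genes, 16 of 18 listed were in the matrix and 0 were tested. The highest of these were *Mmp8* at 16.6, *Mmp11* at 12.7 and *Mmp12* at 8.47 CPM. Of the ADAM and ADAMTS proteinases, a related family that includes the aggrecanases, 3 of 18 were tested and 0 called. These 3 were *Adamts1* (259 CPM), the aggrecanase *Adamts5* (241 CPM) and *Adamts2* (144 CPM), which processes procollagen, and their median log2 difference was -0.56 against 0.06 over all tested genes. Of the genes that activate or restrain the proteinases, 5 of 13 were tested and 0 called, with a median of 0.04. The highest were the protease inhibitor *Serpine2* (802 CPM, log2 difference -2.50, adjusted p = 0.0867), the procollagen enhancer *Pcolce* (602 CPM) and the clearance receptor *Lrp1* (442 CPM, -1.12, adjusted p = 0.180).

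Of the genes known to induce MMP transcription, 6 of 18 were tested in joint fibroblasts, 0 were called, and the median log2 difference was -0.42. The AP-1 genes were abundant in both groups, with *Fos* at 2441, *Junb* at 1988 and *Jun* at 1518 CPM. Their differences between CIA and healthy mice were -0.48, -0.35 and -0.37 on the log2 scale, with adjusted p-values of 0.539, 0.642 and 0.608 (edgeR). Outside joint fibroblasts, *Fos* fell in macrophages of the joint (log2 fold change -1.70, SE 0.31, edgeR adjusted p = 0.00997), and *Mmp8* fell in the sum over all muscle cells (-3.54, SE 0.53, adjusted p = 0.0366). The muscle samples held 5, 47, 59 and 73 cells labelled granulocytes in healthy mice and 1 to 4 in CIA mice.

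The genes most like the members in their levels over the 23 pairs of organ and cell type were named by Pearson's r of log2(mean CPM + 10), among 6668 genes. For *Mmp3* they were *Gpx8* (r = 0.948), *Sfrp1* (0.948) and *Postn* (0.947). For *Timp1* they were *Prg4* (0.960), which encodes the joint lubricant lubricin, *Cthrc1* (0.956) and *Nov* (0.940). For *Mmp13* they were *F3* (0.889), *Angptl4* (0.887) and *Lima1* (0.886). The nearest gene was *Lox* for *Mmp2* (0.979), *Thbs2* for *Mmp14* (0.971), *Col3a1* for *Timp2* (0.965) and *Cald1* for *Timp3* (0.954). *Mmp23* had too few UMIs for this comparison. These correlations describe 23 profiles that share mice and libraries.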

How the data were processed

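The values are UMI counts per gene and cell, deposited by the authors for 48 samples with the organ, mouse and cell type of each cell. Per the methods, reads were trimmed and aligned with Drop-seq tools and STAR to GRCm38, barcodes with few reads, transcripts or genes or much mitochondrial RNA were removed, and cells were labelled from denoised clusters and markers. The submitters' processing notes name GRCh38 and mm9 as builds. Mapping and filtering were not repeated, and doublets were not removed again. Cells without a label (1144 of 13240) were left out of all comparisons.

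UMIs were summed per mouse, organ and cell type, and mice with at least 10 cells entered a fit. Healthy and CIA mice, which are separate animals, were compared with edgeR 4.0.16 (quasi-likelihood, TMM, filterByExpr, R 4.3.3), with Benjamini-Hochberg adjustment over all genes of the fit and a threshold of 0.05. CPM values are untransformed and use the summed UMIs. Median depth was 675 UMIs per cell. Shares have exact binomial 95% intervals, and a count of 0 was given a floor of 3 counts over the group. Alternatives were DESeq2 1.42.0, RLE factors, no filter, other minimum cell numbers, the experiment as a term, cells over 6000 UMIs or with cartilage markers left out, and each mouse left out. Leaving out cells with a barcode found in more than 1 library was chosen after seeing the data. The fits were tested on simulated data.

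The 9 genes, the pathway lists and the tests were chosen with earlier results of these data known. From the lists, genes called in a fit and the 3 most abundant in joint fibroblasts were named, and for patterns the 3 most alike (the nearest 1 for some members, and for *Mmp19* it is not reported here). Organs of 1 mouse come from 1 animal, so the mouse was a replicate block in an alternative. Residuals of such pairs correlated at -0.156 to 0.163 (18 pairs, median -0.0237), against a median of 0.000664 over 156 pairs of different animals.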

Additional observations from a re-analysis of the deposited data

Results flagged for a closer look

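In 6 of the 29 groups of 4 or 5 mice examined, the highest mouse stood far from the others relative to the range of its group. The 3 healthy joint mice were too few to enter. For normally distributed values about 1 group in 20 passes that limit. CPM of sparse counts are skewed and hold zeros, so the 6 groups cannot be set against that share. In the sum over all joint cells, CIA mouse S3 had *Mmp3* at 3812 CPM, where the next mouse had 1024 CPM, and S6 had *Mmp13* at 1067 CPM, where the next had 146 CPM. In skin fibroblasts, S2 had *Timp1* at 1893 CPM against 296 CPM in the next CIA mouse. In muscle fibroblasts, S2 had *Mmp3* at 3571 CPM against 927 CPM, S5 had *Mmp13* at 453 CPM against 0, and S1 had *Mmp14* at 827 CPM, from 10 UMIs, against 206 CPM.

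Single cells held much of the first of these signals and of the second. In S3, 338 of the 454 *Mmp3* UMIs of joint fibroblasts lay in 1 cell, and in S6, 46 of the 67 *Mmp13* UMIs did. In the muscle of S5, 18 of the 89 *Mmp13* UMIs lay in the top one of 25 cells with the gene.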

How the results depend on the processing

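In joint fibroblasts 2 members were called. The number was 1 (*Mmp3*) with RLE factors, the experiment as a term, cells over 6000 UMIs left out or cells with shared barcodes left out, with adjusted p-values for *Timp1* of 0.0633, 0.105, 0.0700 and 0.0607, and 0 to 3 when 1 mouse was left out. Without any healthy mouse it was 0, and without S3 it was 3. Over the other pairs of organ and cell type, where the filter left 4 tests, 0 members were called, and 1 without a filter (*Timp1* in skin fibroblasts). Over all cells of an organ, 0 were called, 2 with DESeq2 and 6 without a filter. Between muscle and joint fibroblasts 1 was called, 2 without a filter and 1 to 2 with a mouse left out. The CIA effect of 0 members differed between organs, and of 1 (*Mmp3*) without a filter.

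The direction turned for *Mmp2* in joint fibroblasts without S5 (-0.16, range with a mouse left out to 1.07), for *Timp2* in joint fibroblasts without a filter (0.23) and without H4 or S3 (range -0.65 to 0.20), for *Mmp3* in skin fibroblasts without S2 (-0.043, range to 0.95) and for *Timp3* in skin fibroblasts with the experiment as a term (0.19). *Timp1* between skin and joint lost its call without S3 (-1.63, adjusted p = 0.0938). Of 297 values of single genes under an alternative, 269 kept direction and side of the threshold. The cause of the changes was not tested.

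With the mouse as a replicate block 4 members were called between skin and joint, against 3, and *Timp1* remained called between muscle and joint. The numbers of healthy and CIA mice name different animals (23 pairs, correlations of -0.317 to 0.325, 8 over 0.1), and a replicate block on them left 0 members called outside joint fibroblasts. No paired analysis was possible in joint fibroblasts because the groups share fewer than 2 numbers. With 3 healthy mice and 5 to 29 *Mmp3* UMIs in each, depth limits how closely the folds are known.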
